A study of Mus musculus with 6 samples.

Results

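Twist1 and Twist2 are the paralogous basic helix-loop-helix (bHLH) transcription factors of the Twist family. They were taken as the genes to which a probe set of the mouse array is annotated alone, and they are 2 of the 18193 genes measured in that way. Each has 1 probe set on the array, 1418733_at for Twist1 and 1448925_at for Twist2, so the values of neither gene can be checked against another probe set. In the RefSeq annotation of GRCm38.p6, Twist1 (gene ID 22160) spans chr12:33957671-33959831 and Twist2 (gene ID 13345) spans chr1:91801461-91848034, both on the plus strand.

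The study hybridised RNA to Affymetrix Mouse Genome 430 2.0 arrays, with 2 arrays for each of 3 groups. The E17.5 valve group was atrioventricular valve dissected from wild-type FVB/N mice at embryonic day 17.5, when the leaflets remodel. The E12.5 cushion group was atrioventricular cushion of the same strain at embryonic day 12.5, the mesenchyme-filled swelling from which the leaflets form. The MC3T3 group was cultured MC3T3-E1 (subclone 4), a clonal mouse preosteoblast line derived from calvaria, so this group is a single clone. No group had been treated, the RNA was pooled, and replicates are described as biological without a count of embryos or cultures per array. The tissues were whole dissections rather than sorted cells, so in the comparisons below fewer cells of a type and less RNA per cell cannot be told apart.

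Twist proteins bind DNA at E-boxes as dimers, usually with a class I bHLH protein (an E-protein), and Id proteins, which lack the basic DNA-binding region, take E-proteins away from such dimers. Twist1 is known for keeping mesenchyme proliferating, migrating and undifferentiated in the neural crest, the limb, the cranial sutures and the cardiac cushions. Twist2, also called Dermo1, is known from dermal mesenchyme and from osteoblast progenitors, and both proteins hold back osteoblast differentiation. The comparisons address how the paralogs differ between an early and a late stage of valve formation and between valve tissue and a bone-forming cell line.

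The 250 bases upstream of each annotated start are shown because they are the sequence by which the paralogs' 5′ ends can be compared. They are from RefSeq's GRCm38.p6 table, on the plus strand, at chr12:33957421-33957670 for Twist1 and chr1:91801211-91801460 for Twist2. Capitals mark matches to TATAA, to CCAAT and to ACGTG or its reverse complement.
Twist1: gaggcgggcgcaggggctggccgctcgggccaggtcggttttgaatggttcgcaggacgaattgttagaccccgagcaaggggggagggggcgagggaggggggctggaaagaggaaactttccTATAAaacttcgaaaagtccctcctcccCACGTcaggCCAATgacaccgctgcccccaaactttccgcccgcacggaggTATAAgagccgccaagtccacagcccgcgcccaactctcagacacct
Twist2: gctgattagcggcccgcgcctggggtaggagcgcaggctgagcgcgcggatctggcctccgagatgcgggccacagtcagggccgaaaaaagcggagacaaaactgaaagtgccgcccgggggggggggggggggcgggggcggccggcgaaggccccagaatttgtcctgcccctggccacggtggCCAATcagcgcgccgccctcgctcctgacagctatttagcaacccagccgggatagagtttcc
Both windows are rich in CpG. Twist1 has 18 CpG dinucleotides and a GC content of 62.4%, and Twist2 has 23 and 68.8%, where the median over 32851 upstream windows is 6 CpG and 52.4%. The letters TATAA occur at 2 places upstream of Twist1, beginning 126 and 47 bases before the start, and at none upstream of Twist2. On either strand 22.8% of all windows hold them. CCAAT occurs upstream of both, 89 bases before the start in Twist1 and 63 bases before it in Twist2, and 33.8% of windows hold it. ACGTG, the core of hypoxia response elements, occurs on the minus strand of the Twist1 window and not in the Twist2 window, against 16.6% of windows. The general E-box CANNTG occurs in neither window and in 66.2% of all windows, and the sequence CACGTG, had it been present, would have counted for CANNTG and ACGTG together. These are matches of letters within a window and no binding was measured.

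The deposited values are ratios in which each probe set's median over the 4 valve arrays is 1, and they are used here on the log2 scale. A ratio compares arrays within a gene. It holds no level, so the abundance of Twist1 cannot be set against that of Twist2, and whether Twist2 was above background is not known. A gene was called at a limma adjusted p below 0.05 (Benjamini-Hochberg) together with a difference of at least 2-fold, and errors of differences are standard errors of that fit.

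The arrays were checked against markers of the labelled tissue and of others. The mean log2 ratio of 4 osteoblast markers was 0.12 to 0.15 on the E17.5 arrays and -0.19 to -0.18 on the E12.5 arrays, against 3.21 on each MC3T3 array. The 12 cardiomyocyte markers averaged 0.34 to 0.35 at E17.5 and -0.70 to -0.62 at E12.5, against -5.45 to -5.44 in MC3T3, where 6 of them lay at the lowest deposited ratio of 0.01. The list means of the 10 mesenchyme markers differed less, at 0.14 to 0.16, -0.35 to -0.27 and 0.37 to 0.43 for E17.5, E12.5 and MC3T3. Those means average over opposite differences. Against MC3T3, 3 of the 10 were called higher and 6 lower at E12.5 (10.2% and 10.8% of all genes). At E17.5, 2 were called higher and 4 lower (9.78% and 7.94%). E17.5 replicate 1 stood apart in 9 hepatocyte genes, all of which were at least 2-fold higher there than in E17.5 replicate 2, with list means of 2.76 and 0.29. E12.5 replicate 1 stood apart from E12.5 replicate 2 as well, with 4 of the 9 hepatocyte genes and 3 of 8 erythroid genes at least 2-fold higher and means of -0.19 and -0.74 for 10 macrophage genes. The results for Twist1 and Twist2, their likest genes, the marker counts and the calls of list genes that differ without either array are given below.

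Twist1 was lower in the E17.5 valve than in the E12.5 cushion and in MC3T3, while the cushion and the cell line lay close together. Its deposited ratio was 0.230 and 0.210 on the E17.5 arrays, 1.77 and 1.82 on the E12.5 arrays, and 1.45 and 1.55 on the MC3T3 arrays. The E17.5 arrays were the lowest and the E12.5 arrays the highest, and no 2 groups overlapped. On the log2 scale the means were -2.19 ± 0.09 at E17.5, 0.85 ± 0.03 at E12.5 and 0.59 ± 0.07 in MC3T3 (SD, n = 2 each).

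Between the stages Twist1 fell by 3.03 ± 0.08 on the log2 scale, an 8.18-fold lower ratio at E17.5 (95% interval of the log2 difference -3.23 to -2.84, limma adjusted p = 1.89e-06). It ranked 7 from the lowest of the 18193 genes. Of all genes 6.51% were called between the stages, 1.84% lower and 4.67% higher at E17.5. The median gene differed by -0.14 between the stages, and relative to it Twist1 differed by -2.90. Without E17.5 replicate 1 the difference was -3.10. Twist1 itself differed by 0.13 on the log2 scale between the E17.5 arrays, a gap that 33.6% of genes exceeded.

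Against MC3T3, Twist1 in the E17.5 valve was lower by a log2 difference of -2.77 ± 0.08, or 6.83-fold (limma adjusted p = 8.98e-08), and by -2.84 without E17.5 replicate 1. It ranked 162 from the lowest, in a comparison in which 17.7% of genes were called, 7.94% as lower. Twist1 in the E12.5 cushion exceeded MC3T3 by 0.26 ± 0.08 on the log2 scale, or 1.20-fold, and was not called, being under 2-fold (limma adjusted p = 0.0295, a threshold on p alone that 57.6% of genes passed). The 95% interval of that ratio ran from 1.05 to 1.37, and over 18 other settings that test this pair of groups the adjusted p ranged from 0.0245 to 0.165, at or above 0.05 in 6 of them. In the authors' deposited description an MC3T3 ratio above 1.5 counts as expressed, and the MC3T3 arrays lie on either side of that value.

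**Figure D1:**
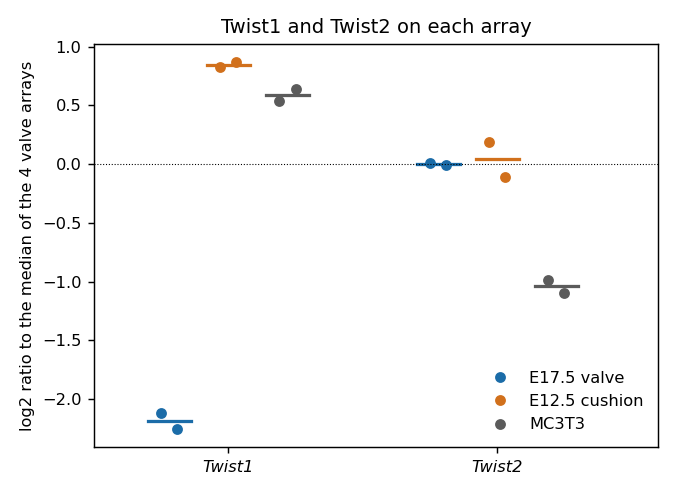
Log2 ratio of Twist1 and Twist2 (vertical axis, relative to the median of the 4 valve arrays) on each of the 6 arrays, with a bar at the group mean. Twist1 sits near -2.2 at E17.5 and above 0.5 in the other groups, while Twist2 sits near 0 at both stages and near -1.0 in MC3T3.

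Twist2 had the other arrangement, with like ratios at both stages and lower ones in MC3T3. Its ratio was 1.01 and 0.994 on the E17.5 arrays, 1.14 and 0.929 on the E12.5 arrays, and 0.505 and 0.468 on the MC3T3 arrays. The E17.5 values lay between the E12.5 values, and every valve array lay above both MC3T3 arrays. The log2 means were 0.00 ± 0.01 at E17.5, 0.04 ± 0.21 at E12.5 and -1.04 ± 0.08 in MC3T3 (SD, n = 2 each).

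The stage difference of Twist2 was -0.04 ± 0.11 and was not called (limma adjusted p = 0.768). Its 95% interval corresponds to an E17.5 to E12.5 ratio between 0.817 and 1.16, and the difference was -0.05 without E17.5 replicate 1. The E12.5 arrays differed by 0.29 in Twist2, where the median gene differed by 0.11 and 10.8% of genes differed by more.

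Against MC3T3, Twist2 was higher in the E17.5 valve by 1.04 ± 0.11, or 2.06-fold (95% interval 0.79 to 1.29, limma adjusted p = 8.41e-05), with 9.78% of genes called higher. It was higher in the E12.5 cushion by 1.08 ± 0.11, or 2.12-fold (95% interval 0.83 to 1.33, limma adjusted p = 5.75e-05), with 21.1% of genes called and 10.2% called higher. Both values lie just past the 2-fold threshold. Leaving out E12.5 replicate 1 gave 0.94 for the cushion comparison, and leaving out MC3T3 replicate 2 gave 0.99 for the E17.5 comparison, so neither was called without the named array. E12.5 replicate 1 is the cushion array with the higher blood and liver markers, whose part in this call was not tested. Without E17.5 replicate 1 the E17.5 difference was 1.03.

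**Figure D2:**
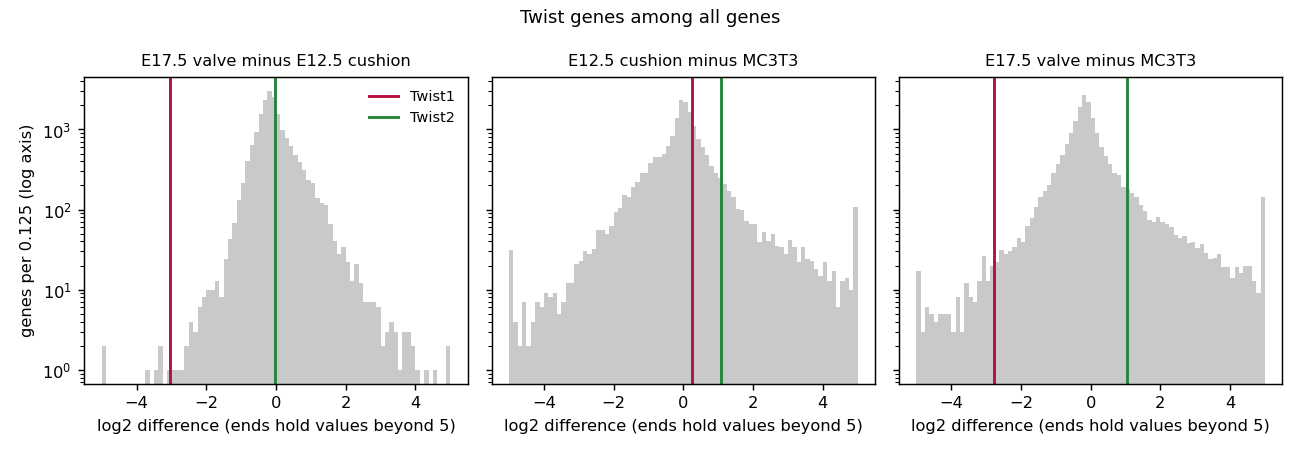
Histograms of the log2 differences of all 18193 genes in the 3 comparisons (horizontal axis, log2 difference; vertical axis, genes per bin on a log scale), with lines at Twist1 and Twist2. Twist1 lies in the far lower tail of the stage comparison at -3.03, while Twist2 lies at -0.04 there and just past 1 in both comparisons with MC3T3.

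The paralogs were compared directly by taking Twist1 minus Twist2 on each array. This log2 difference was -2.13 and -2.24 on the E17.5 arrays, 0.64 and 0.97 on the E12.5 arrays, and 1.52 and 1.73 on the MC3T3 arrays. The groups did not overlap, and the difference between the paralogs' changes was -2.99 for E17.5 against E12.5, -3.81 for E17.5 against MC3T3 and -0.82 for E12.5 against MC3T3. The exact permutation test, two-sided, gave p = 0.333 for each of the 3, before and after Benjamini-Hochberg adjustment, which is the smallest p that 2 arrays against 2 allow.

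Among all genes, Twist1 was 1 of 38 genes (0.209% of all) that were called lower at E17.5 than in both other groups with no call between E12.5 and MC3T3. It had the greatest stage difference of the 38. The next were Col2a1, the fibrillar collagen of cartilage, at -2.81, and Tubb3, a beta-tubulin known from neurons, at -2.43. Twist2 was 1 of 1089 genes (5.99%) called higher in both valve stages than in MC3T3 with no call between the stages. Without E17.5 replicate 1 the patterns held 48 and 1074 genes, Twist1 and Twist2 among them. Without E12.5 replicate 1 they held 32 and 1055, with Twist1 in the first behind Col2a1, and Twist2 was no longer in the second.

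Likeness over the 6 arrays was measured as the Euclidean distance of the log2 ratios, over 18102 genes that did not lie at the lowest ratio on any array. Closest to Twist1 were Col2a1 at 1.05, Tubb3 at 1.38, Hapln1 at 1.73, Tvp23a at 1.84 and Rcc2 at 1.87. Hapln1, which links hyaluronan to proteoglycans, shared the low E17.5 values (-1.57 and -1.73) but lay at -0.68 and -0.27 in MC3T3. No gene lay within a distance of 1 of Twist1, and 7 lay within 2. Without E17.5 replicate 1, Col2a1 and Tubb3 were still the closest, at 1.03 and 1.36, Tvp23a was again among the 5, and Chtf18 and Fzd2 took the other places, with 280 genes within 2. These distances sum over 5 arrays and lack a low E17.5 value, so that count cannot be set against the 7 over 6 arrays. Without E12.5 replicate 1 the 5 genes were those of all arrays.

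Twist2 had many near neighbours. The 5 closest were Timm8b at 0.105, Ndufb1 at 0.114, Timm10 at 0.115, Stap2 at 0.136 and Dusp5 at 0.151, and 2029 genes lay within a distance of 1. Timm8b and Timm10 are chaperones of mitochondrial protein import and Ndufb1 is a subunit of respiratory complex I. Twist2 itself ranked 15139th in distance from Twist1. The distances of the 5 genes nearest Twist2 are below the gap of 0.29 between its own E12.5 arrays, so their order is within the spread of the arrays. Of these 5, 4 were again among the closest 5 without E17.5 replicate 1 and 4 without E12.5 replicate 1, Dusp5 being the one replaced each time.

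**Figure D3:**
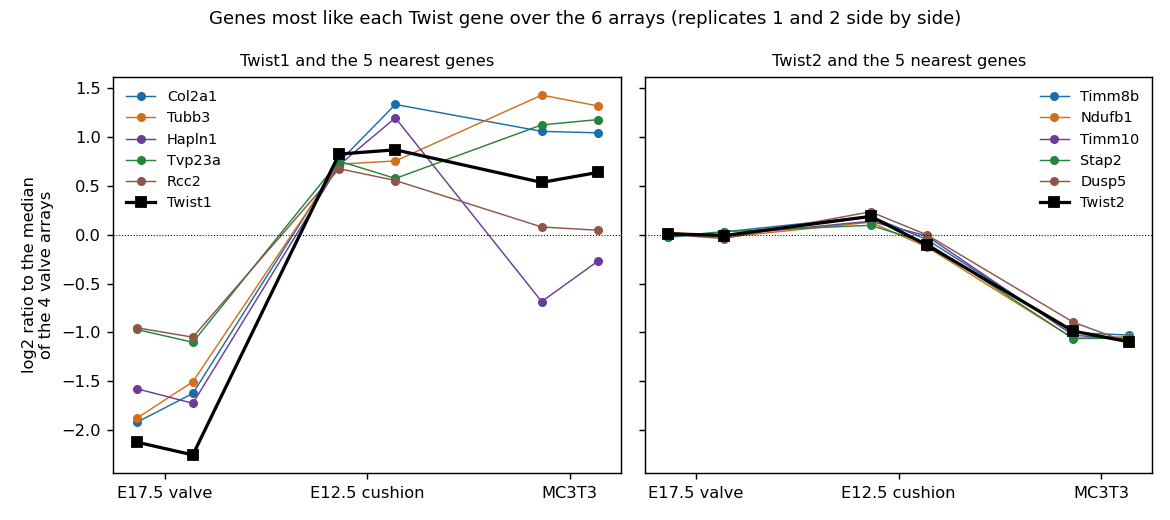
Log2 ratios over the 6 arrays (horizontal axis, the 2 replicates of each group side by side; lines join the points of a gene for the eye only) for Twist1 and Twist2, in black, and the 5 genes nearest to each. The genes near Twist1 are all low at E17.5 and spread apart in MC3T3, while those near Twist2 follow it within about 0.2 on every array.

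Of the genes of E-proteins, with which Twist proteins dimerise, Tcf3 and Tcf4 changed in opposite directions between the stages. Tcf3 (encoding E12 and E47) had log2 ratios of -0.68 and -0.86 at E17.5, 0.52 and 0.48 at E12.5, and -0.03 and -0.00 in MC3T3. Tcf4 (encoding E2-2) had 0.52 and 0.47 at E17.5, -0.84 and -0.78 at E12.5, and 1.09 and 1.09 in MC3T3. No arrays of different groups overlapped in either gene.

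Between the stages Tcf3 fell by 1.27 ± 0.09, or 2.41-fold (limma adjusted p = 4.62e-05), and each of its 3 probe sets was at least 2-fold lower. Tcf4 rose by 1.31 ± 0.07, or 2.47-fold (limma adjusted p = 2.54e-05), with 5 of 6 probe sets at least 2-fold higher. Tcf12 (encoding HEB) had a difference of 0.24 ± 0.11 and was not called (limma adjusted p = 0.109). Its 5 probe sets disagreed, ranging from -0.29 to 1.39. Thus 1 of 3 E-protein genes was called higher and 1 lower, where 4.67% and 1.84% of all genes were. Against MC3T3, Tcf4 was called lower at E12.5 (-1.90 ± 0.07, 3.74-fold, 10.8% of genes called lower), Tcf3 at 0.52 and Tcf12 at -0.92 were not called there, and none of the 3 was called at E17.5, where the differences were -0.75, -0.60 and -0.68 for Tcf3, Tcf4 and Tcf12.

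The Id genes were lowest in MC3T3 except for Id4. Id1 had log2 ratios of -0.66 and -0.57 at E17.5, 0.41 and 0.41 at E12.5, and -3.00 and -2.98 in MC3T3. Id4 had 0.04 and -0.07 at E17.5, -0.04 and -0.03 at E12.5, and 2.08 and 1.93 in MC3T3. For Id4 the stages overlapped and the cell line lay apart.

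Between the stages Id1 (-1.03 ± 0.08, limma adjusted p = 6.15e-05) and Id2 (-1.08 ± 0.09, limma adjusted p = 0.000108) were called lower at E17.5. Both calls were lost when each array was centred on its own median (-0.91 and -0.97), and that of Id1 also without E17.5 replicate 1 (-0.98). Id3 at -0.73 and Id4 at 0.02 were not called. Against MC3T3, Id1 at 2.37 and Id2 at 1.13 were called higher at E17.5, Id4 at -2.02 lower, and Id3 at 0.54 was not called. At E12.5 Id1 at 3.40, Id2 at 2.22 and Id3 at 1.27 were called higher than MC3T3 and Id4 lower, at -2.04. The 3 probe sets of Id2 differed, with E17.5 minus MC3T3 values between -0.16 and 2.06.

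**Figure D4:**
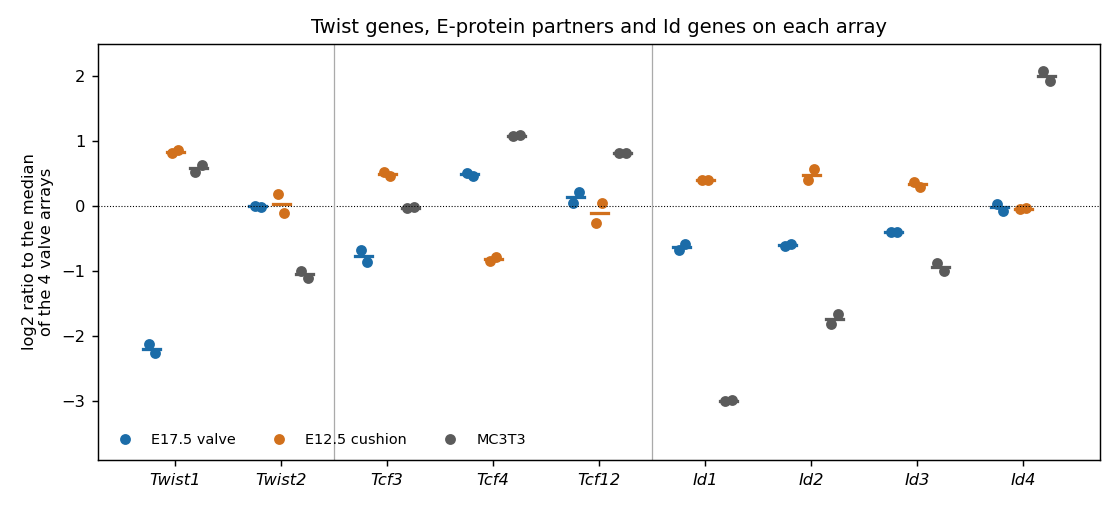
Log2 ratio (vertical axis, relative to the median of the 4 valve arrays) on each of the 6 arrays for the Twist genes, the 3 E-protein genes and the 4 Id genes, with bars at the group means. Tcf3 is lowest and Tcf4 intermediate at E17.5, and Id1 lies near -3.0 in MC3T3.

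Reported downstream of Twist1 are 10 genes measured here, of which Prrx1 is tied to it in fibroblasts and the others in heart valve cells. Between the stages 1 of the 10 was called higher at E17.5 and 1 lower (4.67% and 1.84% of all genes), and 8 were not called. The median difference of the 10 was 0.33 against -0.14 over all genes. Col2a1, which has 1 probe set, was the called gene that moved with Twist1. Its log2 ratios were -1.92 and -1.62 at E17.5, 0.74 and 1.33 at E12.5, and 1.06 and 1.04 in MC3T3, and it fell by 2.81 ± 0.18, or 7.01-fold (limma adjusted p = 3.96e-05).

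Postn, which has 1 probe set and encodes periostin, a matrix protein of valve mesenchyme, moved opposite to Twist1. It had 0.54 and 0.49 at E17.5, -1.03 and -0.75 at E12.5, and 0.79 and 0.81 in MC3T3, and rose by 1.41 ± 0.10, or 2.65-fold (limma adjusted p = 5.84e-05). The uncalled stage differences were 0.68 for Sema3c (a secreted semaphorin), 0.51 for Cdh11 (a mesenchymal cadherin), 0.50 for Mmp13 and -0.54 for Mmp2 (matrix metalloproteinases), 0.47 for Prrx1 (a homeobox factor), 0.19 for Tbx20 (a cardiac T-box factor), -0.08 for Gadd45a (a stress-response gene) and -0.28 for Rab39b (a small GTPase). Gadd45a differed between its E12.5 arrays, at 0.70 and -0.56. Probe sets spread from 0.22 to 1.14 for Sema3c, from -0.03 to 1.33 for Prrx1 and from -0.57 to 0.725 for Tbx20.

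Against MC3T3, 7 of the 10 genes were called lower and 1 higher at E17.5 (7.94% and 9.78% of all genes). At E12.5, 8 were called lower and 1 higher (10.8% and 10.2%). The median differences were -1.63 at E17.5 and -1.71 at E12.5, against -0.15 and 0.01 over all genes. Prrx1 was called lower at both stages, 8.17-fold at E17.5 and 11.3-fold at E12.5, and 5 of its 6 probe sets were at least 2-fold lower. Mmp2 was lower at E17.5 by 5.36-fold and at E12.5 by 3.70-fold. Tbx20 was called higher, with log2 differences of its 3 probe sets between 2.34 and 6.91 at E17.5 and between 2.91 and 6.18 at E12.5, and 1 of the 3 lay at the lowest ratio on both MC3T3 arrays. Col2a1 followed Twist1 in these comparisons too, with -2.82 ± 0.18 at E17.5 and an uncalled -0.01 ± 0.18 at E12.5. The uncalled genes at E17.5 were Sema3c at -0.93 and Postn at -0.28.

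**Figure D5:**
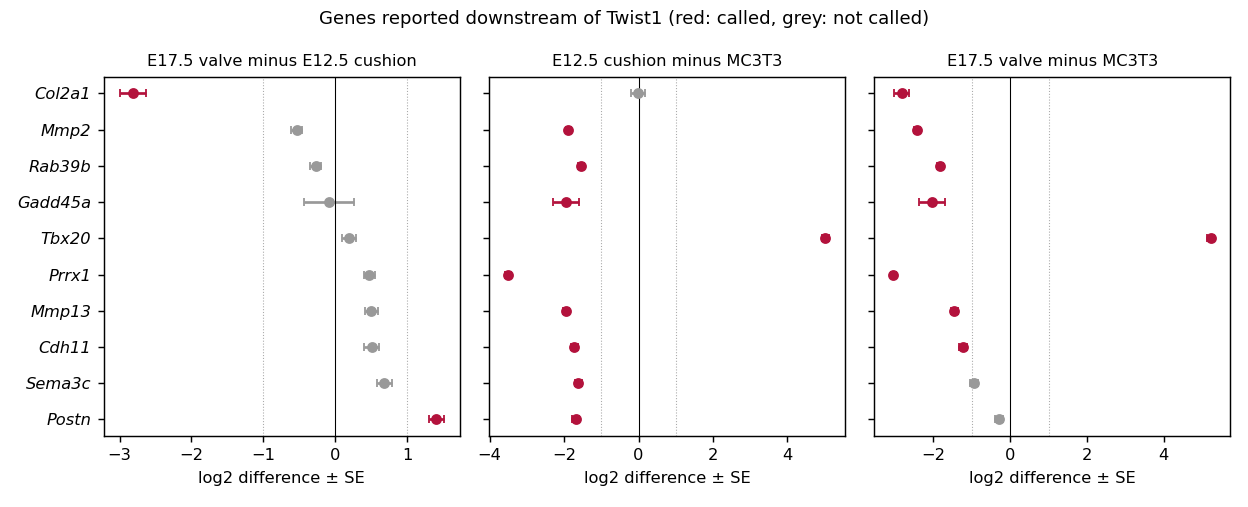
Log2 difference (horizontal axis, point with standard error) of the 10 genes reported downstream of Twist1 in the 3 comparisons, in red where called and in grey where not. Col2a1 and Postn are the called genes between the stages, at -2.81 and 1.41, and 8 of the 10 lie below -1 in the E12.5 comparison with MC3T3.

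Of 20 measured genes of the cranial suture and limb network in which Twist1 is known to act, 3 were called lower at E17.5 than at E12.5 (1.84% of all genes were) and 17 were not called. These were the homeobox genes Prrx2 (-2.15, 4.45-fold), Msx1 (-1.15) and Msx2 (-1.06). Of Msx1 and of Msx2, 1 of 2 probe sets was at least 2-fold lower, and the Msx2 call was lost when arrays were centred (-0.95) or without E17.5 replicate 2 (-0.99). Efna4, which encodes an ephrin, was not called (-0.92) but was called lower without E12.5 replicate 1 (-1.02). Against MC3T3, 8 were called lower at E17.5 (7.94% of all genes) and 6 at E12.5 (10.8%), the others not being called, and Msx2 was also called lower at E17.5 without E17.5 replicate 1 (-1.02). Alx1, a craniofacial homeobox gene, was lower by log2 differences of -6.43 and -4.16 over its probe sets at E17.5 and of -5.85 and -3.93 at E12.5, and Dlx5, a homeobox gene of the osteoblast lineage, was lower by 24.7-fold and 24.5-fold. The medians of this list were -0.37, -0.74 and -0.52 for the stage, E17.5 and E12.5 comparisons.

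Among 11 measured osteoblast genes, of the lineage that Twist proteins are known to hold back, 7 were called lower than MC3T3 at E17.5 and 7 at E12.5 (7.94% and 10.8% of all genes), the other 4 not being called. Ibsp, which encodes bone sialoprotein, was lower by log2 differences of -7.37 and -3.64 over its probe sets at E17.5 and of -7.68 and -3.52 at E12.5, and Sp7, which encodes osterix, was lower by 20.7-fold and 17.2-fold. Between the stages 2 were called higher (4.67% of all genes), the type I collagen genes Col1a1 (1.44, 2.71-fold) and Col1a2 (1.16, 2.24-fold). Pth1r, the receptor of parathyroid hormone, was called lower at E17.5 (-1.84, 3.58-fold, 1.84% of all genes called lower). The list's medians were 0.01, -1.77 and -1.24 for the stage, E17.5 and E12.5 comparisons.

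Of 15 measured signals and factors reported upstream of Twist genes, 2 were called lower at E17.5 than at E12.5 (1.84% of all genes) and 13 were not called. They were Lef1, a nuclear partner of beta-catenin (-2.05, 4.14-fold), and Tbx2, a T-box repressor of the atrioventricular canal (-1.45, 2.74-fold). Against MC3T3, 3 were called higher and 1 lower at E17.5 (9.78% and 7.94% of all genes), and 5 higher and 1 lower at E12.5 (10.2% and 10.8%). Bmp2, a signal of the atrioventricular canal, was higher by 17.3-fold at E17.5 and 27.1-fold at E12.5. Bmp4 was lower by 2.81-fold at E17.5 and by 2.01-fold at E12.5, where the call was lost when arrays were centred (-0.997) and without E12.5 replicate 2 (-0.89) or MC3T3 replicate 1 (-0.97). The list's medians were -0.12, -0.19 and 0.04.

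Of 19 valve mesenchyme transcription factors, 1 was called higher and 6 lower at E17.5 than at E12.5 (4.67% and 1.84% of all genes), with a median of -0.61 against -0.14 over all genes. Meox2, a homeobox factor, rose by 2.28, or 4.86-fold, with 1.16 and 3.40 in its 2 probe sets. Prrx2, Lef1 and Tbx2, given above, had the 3 lowest values, and the call of Sox9, a factor of cushion and cartilage, was lost when arrays were centred (-0.95). Against MC3T3, 6 were called higher and 4 lower at E17.5 (9.78% and 7.94% of all genes), and 8 higher and 3 lower at E12.5 (10.2% and 10.8%). Gata6, a cardiac zinc-finger factor, was called higher at both stages, with log2 differences of its 3 probe sets between 0.48 and 5.63 at E17.5 and between 0.39 and 5.40 at E12.5.

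Of 9 genes of epithelial-to-mesenchymal transition, a process for which Twist1 is known, 1 was called higher at E17.5 than at E12.5 (4.67% of all genes) and 8 were not called, with a median of 0.07. It was Zeb2, a zinc-finger repressor of E-cadherin (1.13, 2.18-fold, 4 of 5 probe sets at least 2-fold higher). Against MC3T3, 2 were called higher and 3 lower at E17.5 (9.78% and 7.94% of all genes), and 1 higher and 3 lower at E12.5 (10.2% and 10.8%). Snai2 was lower by 4.68-fold at E17.5 and 4.61-fold at E12.5. Cdh5, the endothelial cadherin, was called higher at both stages, but its 2 probe sets gave log2 differences of 0.56 and 5.96 at E17.5 and of 0.69 and 5.69 at E12.5.

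The 19 other class II bHLH genes related to Twist gave 1 called lower at E17.5 than at E12.5 (1.84% of all genes) and 18 not called, with a median of -0.35. It was Tal1, a blood and endothelial factor (-1.23), whose call was lost without E12.5 replicate 1 (-0.78). The mean of 8 erythroid markers was also lower at E17.5, at -2.07 to -1.91, against 0.28 to 0.94 on the E12.5 arrays. Of the 8 markers 5 were called lower and 0 higher. Their part in the result was not tested. Against MC3T3, 7 of the 19 were called higher and 1 lower at E17.5 (9.78% and 7.94% of all genes), and 5 higher at E12.5 (10.2%). Scx, a tendon factor, was the lower gene (-1.23, 2.35-fold), of which 1 of 2 probe sets was at least 2-fold lower. Tcf21, an epicardial factor, was called higher at both stages, but its 2 probe sets gave log2 differences of 0.35 and 6.32 at E17.5 and of 0.89 and 6.90 at E12.5. Tcf21 reached the lowest deposited ratio in MC3T3, so the larger values depend on that floor.

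Of 11 measured early cell cycle genes, 1 was called higher and 1 lower at E17.5 than at E12.5 (4.67% and 1.84% of all genes). The other 9 were not called, and the median of the list was -0.24. The gene called higher has 1 probe set. Mki67, a proliferation marker, rose by 1.38, or 2.60-fold, and Mcm2, of the replicative helicase, had -1.06, a call lost when arrays were centred (-0.95), without replicate 2 of E17.5 (-0.96) and without replicate 1 of E12.5 (-0.98). Against MC3T3, 2 were called lower at E17.5 and 2 at E12.5 (7.94% and 10.8% of all genes). Ccnd2, a D-type cyclin, was lower by 2.23-fold at E17.5 and 2.13-fold at E12.5, with 3 and 4 of its 7 probe sets at least 2-fold lower.

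Markers of other cell types also differed between the stages in which Twist1 fell. At E17.5, 5 of 12 cardiomyocyte, 3 of 10 endothelial, 3 of 8 epicardial, 4 of 10 macrophage, 1 of 4 osteoblast and 7 of 9 hepatocyte markers were called higher than at E12.5 (4.67% of all genes), while 5 of 8 erythroid and 2 of 5 smooth muscle markers were called lower (1.84%), the others of these lists not being called. The median stage difference of the 5 smooth muscle markers was 0.35 even so. Of the 10 mesenchyme markers 4 were called higher and 1 lower, with a median of 0.49. The osteoblast marker called was Col1a1 (1.44), which is also among the mesenchyme markers, while Sp7 (-0.27), Ibsp (0.10) and Alpl (0.01) were not called. Without E17.5 replicate 1, 4 hepatocyte markers were called higher and the counts of the other lists were as before. Without E12.5 replicate 1, 6 hepatocyte and 4 cardiomyocyte markers were called higher, and of the erythroid markers 4 were called lower and 1 higher. With all arrays, markers of several cell types were called higher than MC3T3 in valve tissue, as Twist2 was. In the E17.5 valve these were all 12 cardiomyocyte, 8 epicardial, 10 macrophage and 9 hepatocyte markers (9.78% of all genes). So were 9 of 10 endothelial and 5 of 8 erythroid markers. For the E12.5 cushion the counts were 11, 8, 9, 3, 9 and 6 in that order (10.2% of all genes). Against MC3T3, 4 of 10 mesenchyme markers were called lower and 2 higher at E17.5, and 6 lower and 3 higher at E12.5. Of 5 smooth muscle markers, 2 were called lower and 1 higher in each tissue, with medians of -0.42 at E17.5 and 0.30 at E12.5. Of 4 osteoblast markers, 3 were called lower and 0 higher in each tissue. Of all genes 7.94% were called lower and 9.78% higher at E17.5, and 10.8% and 10.2% at E12.5. The part of these markers in the Twist differences was not tested.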

How the data were processed

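RNA of 6 samples was measured on 1 array each. Per the deposited description, the authors used GeneSpring GX 7.3 with RMA and quantile normalization and deposited linear ratios to each probe set's median. In the table that median is 1 over the 4 valve arrays, and the lowest ratio is 0.01. The sources used here do not say if MC3T3 and valve arrays shared 1 quantile normalization, or which of 2 amplification kits a sample had.

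Of 45101 probe sets, 64 controls, 932 of several genes and 9160 of no gene in the platform annotation were left out. The other 34945 name 18193 genes, of which 18033 have their gene ID in the RefSeq table. Log2 ratios of a gene's probe sets were averaged per array. limma 3.58.1 in R 4.3.3 was run on all 6 arrays together with lmFit and eBayes without a trend (residual degrees of freedom 3, prior 4.57), two-sided, with Benjamini-Hochberg adjustment over all genes within a comparison. Python 3.11.15 with scipy 1.17.1 gave the exact tests. The fit was run on simulated data with independent noise of the fitted size. All 50 genes changed 3-fold were called in each comparison, and 3 to 6 unchanged genes were called. Such a run checks the code and cannot test the make-up, normalization or replicates of the arrays. With 2 arrays per group their number limits the precision, and p-values measure only the spread between these samples, which may be technical.

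The members and the 10 gene lists (108 of 116 distinct genes measured) were chosen with earlier results of these data known. Named were both members, all genes of the E-protein, Id and downstream lists, up to 3 called genes each way of the other lists, and the 5 nearest genes. Sox9 and Efna4 were also named, after their values were seen, because their calls changed. Leaving out single arrays for the patterns, the nearest genes and the markers was chosen after seeing the data. Labels share replicate numbers, so a fit with the replicate number as a block was an alternative, beside each array left out, centring, a pseudocount, other probe set rules, thresholds and tests.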

Additional observations from a re-analysis of the deposited data

How the results depend on the processing

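The 3 Twist1 results kept their direction and call in the 18 alternatives that test the difference between a pair of groups. Most of these alternatives fit all 3 groups together. The changes below concern Twist2 and the counts of genes. The uncalled stage difference of Twist2 turned to 0.077 with arrays centred on their median, 0.11 without E12.5 replicate 1 and 0.096 where the second arrays of both stages stood alone, an alternative chosen after seeing the data. Twist2 in E12.5 cushion against MC3T3 was not called without E12.5 replicate 1 (0.94), with those second arrays alone (0.94) or at 4-fold (1.08). In E17.5 valve against MC3T3 it was not called with a pseudocount of 0.05 (0.97), without MC3T3 replicate 2 (0.99) or at 4-fold (1.04). Leaving out each array in turn gave -3.10 to -2.97, -2.84 to -2.71 and 0.21 to 0.31 for Twist1 and -0.19 to 0.11, 0.99 to 1.10 and 0.94 to 1.23 for Twist2 in the stage, E17.5 and E12.5 comparisons. The same gave -3.16 to -2.82, -3.92 to -3.71 and -0.99 to -0.65 for Twist1 minus Twist2, and 1110 to 1318, 3193 to 3238 and 3746 to 3974 called genes. The main counts of 1185, 3225 and 3830 became 3503, 7450 and 9540 with every probe set as its own item and 154, 1233 and 1243 at 4-fold, and the stage count became 2027 with the most variable probe set. Centring moved the share of calls that were higher at E17.5 than at E12.5 to 83.5%, against 71.7% without it.

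The replicate numbers do not show that samples are paired, since the correlation of replicate 1 minus replicate 2 over genes was 0.15 between the valve stages, 0.02 between E17.5 and MC3T3 and 0.06 between E12.5 and MC3T3. With the replicate block, Twist1 had a stage adjusted p of 6.40e-06 and an E12.5 against MC3T3 adjusted p of 0.0416 (limma), and the counts of called genes were 1202, 3237 and 3835 in the stage, E17.5 and E12.5 comparisons. The block changed no call of a member. A filter on dim probes and another background correction were not run because ratios hold no signal level. For the same reason it is not known how far background limits any value here.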
